A study of Mus musculus with 95 samples.

Results

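Lungs of C57BL/6 mice at day 34 of exposure to Pneumocystis murina were compared with lungs of unexposed C57BL/6 mice of the same day. All arrays whose labels give this strain and day were used: 10 from exposed and 5 from unexposed mice, 15 of the 95 arrays of the series. The mice were females aged 8 weeks with no engineered allele named. Exposed mice shared a cage with a seeder mouse that was heavily infected with P. murina, and the unexposed mice had no seeder. Both days of this experiment, 34 and 41, used the same 3 cages, of which 2 were exposed and 1 was not, and 5 mice per cage were killed on each day. All unexposed mice came from 1 cage, so an effect of the cage and an effect of exposure cannot be told apart. The labels do not give the cage of a mouse, so the 2 exposed cages cannot be compared either. The fits treat mice of the same cage as independent.

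Pneumocystis is a fungus that lives attached to the epithelium of the lung alveolus and spreads through the air between mice. Mice with working T cells clear it over some weeks, with help from CD4+ T cells, from interferon-gamma, which activates macrophages and raises antigen presentation, and from antibody. Airway epithelium can answer such stimuli with mucus, and lung epithelium and macrophages with acute phase proteins and chemokines that draw in leukocytes.

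Total RNA of lung homogenate was measured on single-colour Affymetrix arrays, and 1 intensity per probe set was deposited. A level is log2(intensity + 8) of a gene's brightest probe set, and a change is the mean level of exposed mice minus that of unexposed mice, so that a fold is 2 to the power of the change, and changes of dim genes are understated. A gene was called where the adjusted p of limma was under 0.05 in a fit of the 30 arrays of days 34 and 41, over 8251 genes. Each SE and p thus rests on the spread within the groups of both days and does not measure the spread of day 34 alone. In a fit of only the 15 arrays of day 34, 164 genes were called higher and 40 lower. Median intensity lay between 40.8 and 46.2 in exposed mice and between 40.9 and 43.6 in unexposed mice. In a homogenate, a larger number of cells of a type and more RNA per cell cannot be told apart.

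The arrays of day 34 differed among themselves in 2 ways that are no part of the design. Krt13, a keratin of the stratified epithelium that lines the oesophagus and mouth, had levels of 9.66, 11.20, 9.97, 11.04 and 3.70 in unexposed replicates 1 to 5. In exposed replicates 1, 6 and 8 it had levels of 11.06, 10.39 and 10.83, and in the other 7 exposed mice it lay between 3.37 and 4.54. Squamous transcripts were thus present in 4 of 5 unexposed and 3 of 10 exposed arrays, with no array of the series between 4.87 and 9.34. The difference of mean levels was -3.06, with an exact two-sided permutation p = 0.168. Krt4, the usual partner of Krt13, lay between 6.44 and 7.19 without and between 11.41 and 12.33 with squamous transcripts.

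The second difference was in the control probe sets for Gapdh, whose 3' to 5' intensity ratio rises when labelled RNA is short. The ratio was 4.42, 3.24, 1.24, 2.40 and 1.21 in unexposed replicates 1 to 5. It was 3.02 and 2.47 in exposed replicates 2 and 7 and between 0.897 and 1.17 in the other 8 exposed mice. The mean log2 ratio was lower by 0.80 in exposed mice (exact two-sided permutation p = 0.0473), but p ranged from 0.012 to 0.122 when each array was left out, and with the beta-actin control probe sets the difference of -0.78 had p = 0.0719. At day 41 none of 15 arrays held squamous transcripts and the highest ratio was 1.12. These measures were unevenly spread over the exposed and unexposed mice of day 34. For that reason lists and many genes are given with values from fits that account for them or from other controls.

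**Figure D1:**
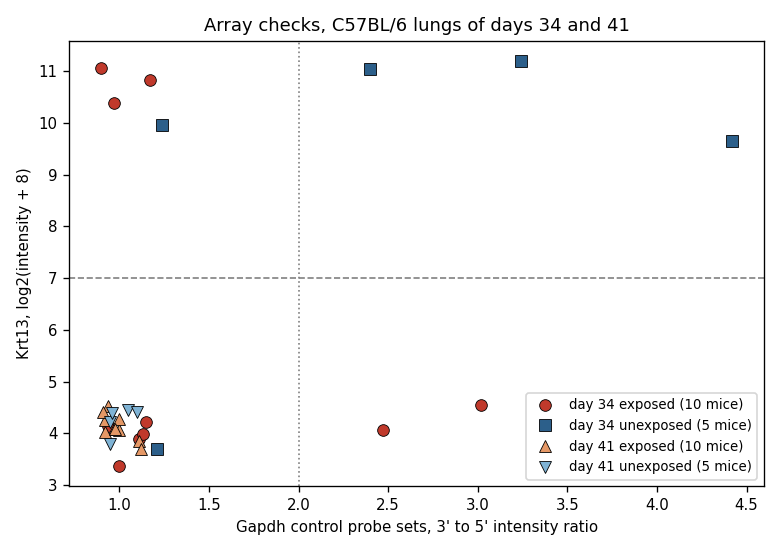
Krt13 level (vertical axis, log2(intensity + 8)) against the Gapdh 3' to 5' ratio (horizontal axis) of each C57BL/6 array of days 34 and 41, 1 symbol per mouse. The dashed line at 7 separates arrays with squamous transcripts and the dotted line marks a ratio of 2; 4 of 5 unexposed arrays of day 34 lie above the dashed line, and all 15 arrays of day 41 lie in the lower left.

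At day 34, 434 genes were called higher (5.26% of all genes tested) and 244 lower (2.96%) in exposed lungs. In 104 genes (1.26%) every exposed array was above every unexposed array, and in 27 (0.327%) every exposed array was below; 103 and 25 of these were called. Each call was then held against 3 further settings, which with the main comparison are the 4 settings referred to throughout. Of the genes called higher, 95 (1.15% of all genes) were also called with the Gapdh ratio as a covariate, with scores of squamous and skeletal muscle transcripts as covariates, and against the unexposed mice of days 34 and 41 pooled without arrays with squamous transcripts. Of the genes called lower, 4 (0.0485% of all genes) were. Against the pooled controls without squamous transcripts alone, 278 genes (3.37%) were higher and 154 (1.87%) lower.

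Within the arrays that held squamous transcripts, 3 exposed against 4 unexposed, 407 genes were higher and 260 lower. The 434 genes had a median change of 0.73 there against 0.64 over all arrays. Since these arrays are among those that chose the 434 genes, a positive median there is no independent support. Without those arrays 1 unexposed mouse was left, and 12 genes were higher and 5 lower in a fit that assumes that this mouse varies like the other groups. One array decides much of the count: without unexposed replicate 5, the mouse with neither squamous transcripts nor a high ratio, 751 genes were higher and 561 lower, and without unexposed replicate 2 these were 323 and 126. All 434 rises and all 244 falls kept their sign with the Gapdh ratio as a covariate and with both tissue scores as covariates, which use the same arrays that chose these genes. Against the pooled controls without squamous transcripts 368 rises (84.8%, against 43.1% of all genes) and 213 falls (87.3%, against 56.9%) kept their sign. Against the unexposed mice of day 41 alone these were 366 (84.3%, against 42.4%) and 195 (79.9%, against 57.6%). Without arrays with a ratio above 2 they were 421 (97%, against 47%) and 238 (97.5%, against 53%). These settings too reuse exposed mice that chose the genes, which favours the same sign.

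**Figure D2:**
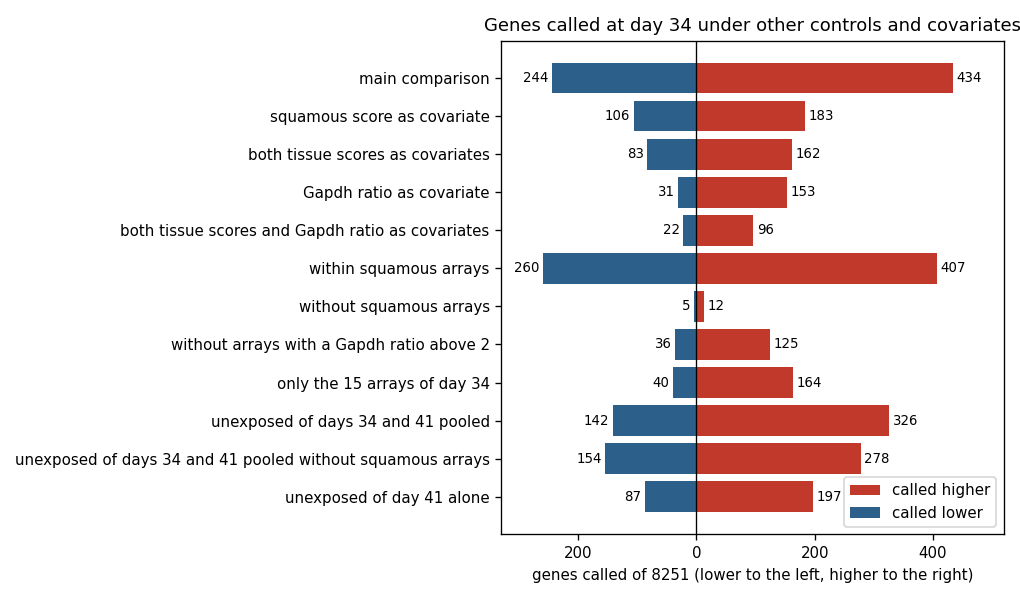
Genes called higher (right) and lower (left) of 8251 at day 34 in the main comparison and under other covariates, array selections and controls, 1 pair of bars each. With the Gapdh ratio as a covariate 153 and 31 genes were called, with both tissue scores 162 and 83, and with both tissue scores and the Gapdh ratio 96 and 22.

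The largest rise was in Clca1, a secreted protease-like protein of mucus-producing goblet cells. Its levels were 6.67, 5.24, 5.79, 7.07 and 5.76 in the 5 unexposed mice and 10.86 at the lowest, 11.75 in the median and 12.14 at the highest in exposed mice. The lowest exposed mouse was far above the highest unexposed mouse. The change was 5.51 (SE 0.39, adjusted p = 7.28e-11), 45.6-fold on this scale, and it was 5.58 with the Gapdh ratio as a covariate, 5.22 against the pooled controls and 5.68 without the arrays with squamous transcripts. A dimmer probe set of Clca1 moved from a mean of 3.91 to one of 4.50.

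Other mucus genes rose with it. Of 17 measured goblet cell and mucus genes 8 were called higher and none lower, with a median change of 0.40 against -0.01 over all genes; 4 of them were called in all 4 settings. Tff2, a trefoil peptide that is secreted with mucins, had levels of 7.12, 5.85, 7.60, 7.53 and 7.11 in unexposed mice against 7.72, 9.10 and 9.99 (lowest, median, highest) in exposed mice, with no overlap and a change of 1.99 (SE 0.33, adjusted p = 0.000125). Fcgbp, a large mucus protein, rose by 1.30 (SE 0.26, adjusted p = 0.00157) and in a second probe set moved by 1.89. Agr2, a protein disulfide isomerase needed for mucin folding, rose by 1.72 (SE 0.37, adjusted p = 0.00287), and Muc5ac, the gel-forming mucin of goblet cells, by 1.18 (SE 0.36, adjusted p = 0.0393). Muc5ac was near the bottom of the scale in all unexposed mice, 3.14 to 3.55, and spread from 3.28 to 6.75 in exposed mice, 6 of which were above every unexposed mouse. With the Gapdh ratio as a covariate Muc5ac and Agr2 were not called (adjusted p = 0.394 and 0.0785). Bpifb1, a secreted protein of the upper airway, was called with a change of 1.56, but its change against the pooled controls was 0.14 (adjusted p = 0.869).

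Acute phase genes, whose products enter blood and airway fluid during inflammation, were called higher in 7 of 20 measured and lower in none, with a median change of 0.37. Saa3, the serum amyloid A made in tissues outside the liver, had levels of 6.51, 5.14, 5.43, 6.12 and 5.05 in unexposed and 8.29, 9.51 and 11.03 (lowest, median, highest) in exposed mice. No exposed mouse reached down to the unexposed ones, and the change was 3.95 (SE 0.42, adjusted p = 2.33e-07). Lcn2, which withholds iron from microbes by binding siderophores, had levels of 6.53, 7.24, 8.00, 7.23 and 7.94 in unexposed and 9.35, 10.08 and 11.30 in exposed mice. It rose by 2.86 (SE 0.27, adjusted p = 1.98e-08), and by 1.60 (adjusted p = 0.00116) against the pooled controls, and the unexposed mice of day 41 had levels of 8.56 to 9.35; a dimmer probe set moved by -0.32. Itih4, an acute phase plasma protein, rose by 1.11 and Cp, the copper-carrying ferroxidase ceruloplasmin, by 0.87, each with no overlap between the groups. Serpina3n, a protease inhibitor, rose by 0.81 (SE 0.15, adjusted p = 0.0005), and by 0.31 (adjusted p = 0.266) against the pooled controls. Cebpd, a transcription factor of the acute phase, was called with a change of 0.95 that turned to -0.13 against the pooled controls.

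**Figure D3:**
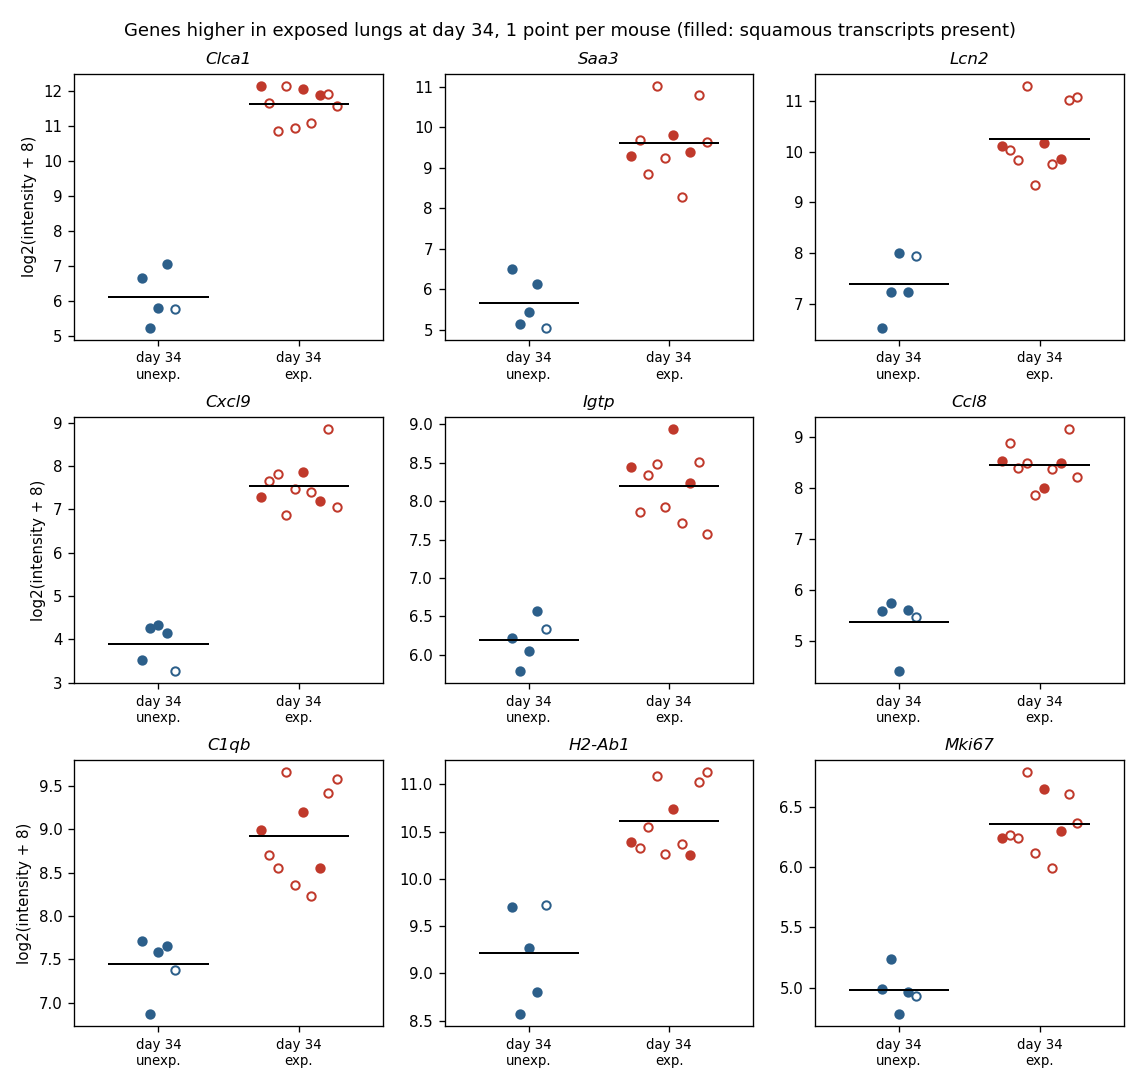
Levels of 9 genes in the 5 unexposed and 10 exposed mice of day 34 (vertical axes, log2(intensity + 8); horizontal lines, group means). Filled symbols are arrays with squamous transcripts; in each of the 9 genes every exposed mouse lies above every unexposed mouse, with and without squamous transcripts.

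Interferon-gamma acts through a receptor on the cell surface, and its targets include chemokines, small GTPases that attack vacuoles around microbes, and the machinery of antigen presentation. The ligand itself was near the bottom of the scale: Ifng had levels of 3.24, 3.07, 3.59, 3.51 and 3.55 in unexposed and 3.12, 3.58 and 4.52 (lowest, median, highest) in exposed mice, which overlap, and its change of 0.28 was not called (SE 0.18, adjusted p = 0.362). Of 15 measured genes of the ligand, receptor and signal, 2 were called higher (13.3%, against 5.26% of all genes) and none lower. These were Socs1, the feedback inhibitor of the pathway, with a change of 1.36 (SE 0.24, adjusted p = 0.000409), and Irf1, a transcription factor induced by interferon, with 0.65 (SE 0.14, adjusted p = 0.00267). Against the pooled controls neither was called, with changes of 0.54 (adjusted p = 0.0794) and 0.34 (adjusted p = 0.156).

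Targets of interferon-gamma rose as a group: 19 of 25 measured were called higher and none lower, a share of 76% against 5.26% of all genes, with a median change of 0.94. Of these, 14 were called in all 4 settings, and 16 against the pooled controls without squamous transcripts. Cxcl9, a chemokine for T cells that carry the receptor CXCR3, had levels of 3.52, 4.25, 4.32, 4.14 and 3.27 in unexposed and 6.86, 7.44 and 8.86 (lowest, median, highest) in exposed mice. All exposed mice were high, replicate 9 most, and the change was 3.64 (SE 0.38, adjusted p = 1.37e-07). Its relative Cxcl10 had levels of 4.02, 4.08, 3.51, 4.00 and 3.16 against 4.96, 5.32 and 6.36, a change of 1.73 (SE 0.22, adjusted p = 2.38e-06). The shared receptor gene Cxcr3 rose by 1.09 (SE 0.15, adjusted p = 9.29e-06), from 5.29 to 5.69 in unexposed mice to 6.17 to 6.99 in exposed mice.

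Igtp, an immunity-related GTPase, had levels of 6.22, 5.79, 6.05, 6.57 and 6.33 in unexposed and 7.57, 8.28 and 8.94 (lowest, median, highest) in exposed mice, a change of 2.01 (SE 0.20, adjusted p = 4.66e-08). Guanylate-binding proteins, larger GTPases of the same defence, rose too: Gbp2 changed by 1.63 and Gbp3 by 1.34, with no overlap for either. In both, unexposed replicate 1, the array with the highest Gapdh ratio, was the lowest of all mice, at 6.45 for Gbp2 and 6.30 for Gbp3 against at least 7.59 and 7.44 in the other unexposed mice. With the Gapdh ratio as a covariate the changes were 1.35 (adjusted p = 6.19e-05) and 1.08 (adjusted p = 0.00211). Iigp1 and Ifi47, also of the GTPase family, rose by 1.59 and 1.41 with no overlap.

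Promoters of these targets are shown because the genes moved together. Promoters were taken from RefSeq on build GRCm38.p6, 250 bases before to 50 after a gene's start; 16 of the 19 called targets had an entry, with 18 promoters. The letters GAAA, any 2 bases and GAAA again, on either strand, which include the interferon-stimulated response element bound by interferon regulatory factors, were in 8 of the 18 promoters (44.4%), against 3.44% of all 32851 promoters of the table and 3.13% of the 8412 promoters of genes measured on these arrays. A match is a description of the letters, and no binding was measured. The genes come from a list of interferon-gamma targets, for which such letters are likely whatever the arrays show. Members of the list that were not called were not scored, so the share does not bear on the change at day 34. The promoters of 4 named targets that hold this paired GAAA follow, 5' to 3' on the gene's strand, with matches to these letters in capitals: Gbp2 at chr3:142620413-142620712 on the plus strand, Gbp3 at chr3:142559794-142560093 on the plus strand, Cxcl10 at chr5:92348840-92349139 on the minus strand and Igtp at chr11:58199306-58199605 on the plus strand.
Gbp2: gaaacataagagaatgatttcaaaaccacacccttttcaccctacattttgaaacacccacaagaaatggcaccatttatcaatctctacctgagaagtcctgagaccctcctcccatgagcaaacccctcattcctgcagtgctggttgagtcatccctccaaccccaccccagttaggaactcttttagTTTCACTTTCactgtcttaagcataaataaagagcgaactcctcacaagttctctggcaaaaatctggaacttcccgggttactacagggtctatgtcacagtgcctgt
Gbp3: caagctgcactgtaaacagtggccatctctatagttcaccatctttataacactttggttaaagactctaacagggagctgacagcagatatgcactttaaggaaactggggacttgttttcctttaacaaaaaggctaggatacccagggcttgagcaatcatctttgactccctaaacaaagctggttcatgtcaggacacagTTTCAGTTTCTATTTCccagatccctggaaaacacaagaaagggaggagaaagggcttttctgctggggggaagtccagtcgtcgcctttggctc
Cxcl10: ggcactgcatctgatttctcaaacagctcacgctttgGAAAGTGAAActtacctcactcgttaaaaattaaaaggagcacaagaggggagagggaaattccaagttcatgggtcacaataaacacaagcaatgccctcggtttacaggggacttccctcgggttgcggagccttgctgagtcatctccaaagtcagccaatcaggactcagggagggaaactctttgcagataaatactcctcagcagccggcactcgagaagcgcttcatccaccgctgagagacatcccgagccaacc
Igtp: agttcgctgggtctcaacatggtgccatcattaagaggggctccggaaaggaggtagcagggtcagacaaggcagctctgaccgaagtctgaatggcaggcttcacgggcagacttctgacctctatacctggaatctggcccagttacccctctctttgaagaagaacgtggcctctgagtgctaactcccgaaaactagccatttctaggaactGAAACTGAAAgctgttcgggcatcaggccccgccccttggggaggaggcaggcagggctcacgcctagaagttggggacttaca
In Gbp2, Gbp3 and Igtp the matches lay within 60 bases before the start; in Cxcl10 the match began 213 bases before it. Gbp3 holds 2 overlapping matches to the paired GAAA on the reverse strand.

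MHC class II molecules show peptides to CD4+ T cells. Of 14 measured transcripts of these molecules and their loading machinery 9 were called higher, none lower and 5 in neither direction, with a median change of 0.65, and 6 were called in all 4 settings. Against the pooled controls 7 were called higher and 1 lower. H2-Ab1, a class II chain, had levels of 9.70, 8.57, 9.27, 8.80 and 9.72 in unexposed and 10.25, 10.47 and 11.13 (lowest, median, highest) in exposed mice, a change of 1.40 (SE 0.18, adjusted p = 2.63e-06). H2-Eb1, another chain, rose by 1.33, and Ifi30, a thiol reductase that opens antigens in lysosomes, by 1.58, both with no overlap. H2-DMb1, which helps to load peptides, rose by 1.13 and by 0.47 (adjusted p = 0.0754) against the pooled controls. Of the type I interferon genes, 9 of 15 measured were called higher and none lower with a median change of 0.45, and none of the 9 was called in all 4 settings. Ifit1, which blocks foreign RNA, had levels of 6.03, 7.59, 6.66, 7.35 and 6.08 in unexposed mice against 6.78 to 8.29 in exposed mice, and only 4 exposed mice were above all unexposed ones (change 0.72, SE 0.21, adjusted p = 0.0315).

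Of 16 measured ligands of the monocyte chemokine list 6 were called higher (37.5%, against 5.26% of all genes), all 6 in all 4 settings, and none lower. The other 10 were not called, and the median change was 0.45. Ccl8, which acts on monocytes and T cells, had levels of 5.59, 5.75, 4.42, 5.62 and 5.47 in unexposed and 7.87, 8.45 and 9.16 (lowest, median, highest) in exposed mice. The groups did not overlap, and the change was 3.07 (SE 0.25, adjusted p = 1.4e-09). Ccl2, the main ligand of the monocyte receptor CCR2, rose by 1.89 (SE 0.22, adjusted p = 7.91e-07), Ccl7 by 1.56, Ccl12 by 1.30 and Ccl9 by 2.32. In Ccl9 one exposed mouse, replicate 4, reached 10.73 where the median was 8.91. Of 15 measured chemokine receptors 3 were called higher (20%, against 5.26% of all genes): Cxcr3, Ccr2 (change 0.65, SE 0.16, adjusted p = 0.0076) and Ccr1 (change 0.48, SE 0.14, adjusted p = 0.0346). Of these Cxcr3 alone was called in all 4 settings. With the Gapdh ratio as a covariate adjusted p was 0.0765 for Ccr2 and 0.265 for Ccr1, and against the pooled controls 0.0228 and 0.296.

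Macrophage and monocyte genes were called higher in 24 of 46 measured and lower in none, with a median change of 0.59; 12 were called in all 4 settings and 16 of the 24 against the pooled controls. The 3 chains of complement C1q, which in tissue are made mainly by macrophages, moved alike: C1qa changed by 1.47, C1qb by 1.48 and C1qc by 1.24. For C1qb the levels were 7.71, 6.87, 7.59, 7.66 and 7.38 in unexposed and 8.23, 8.84 and 9.66 (lowest, median, highest) in exposed mice, with no overlap (SE 0.20, adjusted p = 9.29e-06); a dimmer probe set moved by 0.22. Mmp12, the macrophage elastase, was the most variable of these genes, with levels of 6.21, 8.01 and 11.04 in exposed mice against 4.97, 6.26, 5.62, 7.50 and 6.46 in unexposed mice. Its change was 2.38 (SE 0.58, adjusted p = 0.00828), and it was not called with the Gapdh ratio (adjusted p = 0.0871) or the tissue scores (adjusted p = 0.143) as covariates. Aif1, a cytoskeletal protein of macrophages, rose by 1.33, and Timp1, an inhibitor of matrix proteases, by 1.18, both with no overlap.

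Genes for recognition of fungi and for complement moved in part. Of 17 measured recognition genes 4 were called higher (23.5%, against 5.26% of all genes) and 1 lower (5.88%, against 2.96%). None of them was called in all 4 settings. The rises were Itgb2 (0.90), the beta chain of complement receptor 3, the scavenger receptor Msr1 (0.83), the coreceptor Cd14 (0.69) and the mannose receptor Mrc1 (0.54); the scavenger receptor Cd36 fell (-0.63, SE 0.14, adjusted p = 0.00505). Of 14 complement genes 4 were called higher, all in all 4 settings: the 3 chains of C1q and Cfp (1.00, SE 0.18, adjusted p = 0.000388), the properdin that stabilises the alternative pathway.

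Of 20 measured neutrophil genes 4 were called higher (20%, against 5.26% of all genes) and none lower. The list did not rise in its median, which was a change of -0.13 against -0.01 over all genes. The called genes were 2 ligands of the neutrophil receptor CXCR2, Cxcl5 (2.12, SE 0.31, adjusted p = 3.12e-05) and Cxcl1 (2.04, SE 0.25, adjusted p = 1.99e-06), the formyl peptide receptor gene Fpr2 (0.80) and Ltf (1.55), the iron-binding lactoferrin that glands make too. Cxcl1 had levels of 3.80, 4.97, 5.18, 4.00 and 5.10 in unexposed and 5.85, 6.59 and 7.79 (lowest, median, highest) in exposed mice, with no overlap. Cxcl5 and Cxcl1 were called in all 4 settings; Ltf had a change of 0.48 (adjusted p = 0.555) against the pooled controls.

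Genes of type 2 immunity and alternative macrophage activation were called higher in 5 of 19 measured, 4 of them in all 4 settings, and lower in none. Chil3, a chitinase-like protein of alveolar macrophages, had levels of 10.55, 10.36, 10.04, 9.95 and 10.48 in unexposed and 11.03, 11.76 and 12.20 (lowest, median, highest) in exposed mice, a change of 1.46 (SE 0.17, adjusted p = 7.91e-07). Chia1, the acidic chitinase, which cleaves chitin, rose by 1.63 (SE 0.26, adjusted p = 0.000116), and Ccl17, a chemokine for CCR4-bearing T cells, by 1.82 (SE 0.29, adjusted p = 9.09e-05); in each, 9 of 10 exposed mice were above every unexposed mouse. The type 2 cytokines were near the bottom of the scale and not called: Il4 changed by 0.11, Il5 by 0.31 and Il13 by -0.05, with adjusted p = 0.768, 0.422 and 0.809.

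T cell genes were called higher in 6 of 24 measured and lower in none, with a median change of 0.28, and 3 were called in all 4 settings. Cd3e, a chain of the T cell receptor complex, had levels of 4.86, 6.08, 5.50, 4.29 and 6.31 in unexposed and 6.21, 6.71 and 6.87 (lowest, median, highest) in exposed mice. The unexposed mice were spread widely and the exposed mice closely, with 9 of 10 above all unexposed mice (change 1.24, SE 0.20, adjusted p = 0.000116). The SD was 0.84 in unexposed and 0.22 in exposed mice, and the SE pools these with the groups of day 41. Cd6, a T cell adhesion receptor, rose by 0.94, and Icos, a costimulator of activated T cells, by 1.07. Cd40lg, the ligand of CD40, was at 3.12 to 3.74 in unexposed and 3.07 to 3.74 in exposed mice and was not called (change -0.12, adjusted p = 0.54). Of 18 measured genes of cytotoxic and NK cells 1 was called, Serpinb9, an inhibitor of granzyme B (0.43, SE 0.13, adjusted p = 0.0315), a share of 5.56% beside 5.26% of all genes. Its call was lost with the Gapdh ratio as a covariate (adjusted p = 0.367) and against the pooled controls (adjusted p = 0.229).

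Of 28 measured B cell and plasma cell genes 1 was called higher (3.57%, against 5.26% of all genes) and 4 lower (14.3%, against 2.96%). None of them was called in all 4 settings. The called falls were in the B cell transcription factor Pax5 (-0.68), the kinase Blk (-0.65), the receptor chain Cd79a (-0.61) and the surface protein Ms4a1 (-0.55). Unexposed replicate 1 was the highest of all mice for 3 of these, at 7.46 for Pax5, 7.63 for Blk and 9.01 for Cd79a, where the other unexposed mice were at most 6.45, 6.77 and 8.07. With the Gapdh ratio as a covariate the changes were -0.32 for Pax5 and -0.34 for Blk, with adjusted p = 0.534 and 0.374. That of Cd79a was -0.45 (adjusted p = 0.261). Against the pooled controls Cd79a was called, with -0.53 (adjusted p = 0.00721), and Pax5, Blk and Ms4a1 were not (adjusted p = 0.244, 0.176 and 0.445). The rise was in Cd72, a coreceptor of B cells, with 0.91 (SE 0.16, adjusted p = 0.000409). Products of plasma cells were not called: Igha, the heavy chain of IgA, changed by 0.67 (SE 0.33, adjusted p = 0.206) and Jchain, which joins IgA and IgM, by 0.18 (SE 0.38, adjusted p = 0.826). In Igha exposed replicate 10 stood alone at 10.78, where the median of exposed mice was 8.73.

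Cell cycle genes were called higher in 17 of 46 measured and lower in none, with a median change of 0.47. Mki67, a protein of dividing cells, had levels of 4.99, 5.24, 4.78, 4.96 and 4.93 in unexposed and 5.99, 6.29 and 6.79 (lowest, median, highest) in exposed mice, with no overlap and a change of 1.38 (SE 0.17, adjusted p = 1.74e-06); a dimmer probe set moved by -0.35. Birc5, survivin, which works in chromosome segregation, rose by 1.40 (SE 0.21, adjusted p = 4.55e-05) with no overlap. Rrm2, a subunit of the enzyme that makes deoxynucleotides, rose by 1.03, and Tk1, thymidine kinase, by 1.11. In Tk1 unexposed replicate 1 was at 4.46 and the other unexposed mice at 6.02 to 6.46, and with the Gapdh ratio as a covariate the change was 0.83 (adjusted p = 0.13). Of the 17 genes, 5 were called in all 4 settings and 11 against the pooled controls.

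Changes of more than 1 were fewer among the falls: 23 of the 244 genes called lower and 79 of the 434 called higher passed that size. The 4 falls called in all 4 settings were Cdh13, Gria1, Slc4a5 and Ces1d. Cdh13, T-cadherin, which binds adiponectin, had levels of 4.38, 4.55, 5.12, 4.65 and 4.93 in unexposed and 3.34, 3.65 and 4.59 (lowest, median, highest) in exposed mice (change -0.95, SE 0.19, adjusted p = 0.00184). Within arrays with squamous transcripts its change was -0.47 (adjusted p = 0.241), and against the unexposed mice of day 41 alone -0.66 (adjusted p = 0.0523). Gria1, a subunit of AMPA glutamate receptors, had levels of 5.23, 5.50, 5.89, 5.02 and 5.54 in unexposed and 3.61, 4.69 and 4.88 in exposed mice, with no overlap (change -0.90, SE 0.19, adjusted p = 0.00267), and a second probe set moved by -0.77. Ces1d, a carboxylesterase of lung and liver, had levels of 9.97, 10.34, 10.05, 10.16 and 9.94 in unexposed and 9.10, 9.39 and 9.83 in exposed mice, again with no overlap (change -0.68, SE 0.10, adjusted p = 3.22e-05). Slc4a5, a sodium bicarbonate cotransporter, fell by 0.55 (SE 0.13, adjusted p = 0.00975). Ogn, a small proteoglycan of the matrix, fell by 0.85 (SE 0.14, adjusted p = 9.09e-05) with no overlap, and its change was -0.44 (adjusted p = 0.0914) against the pooled controls.

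Genes of xenobiotic and redox metabolism were called lower in 12 of 40 measured, 30% against 2.96% of all genes, and higher in none; club and ciliated cell genes were called lower in 5 of 14 and higher in none. Of these falls, 1 xenobiotic gene, Ces1d, and no club or ciliated cell gene was called in all 4 settings, and against the pooled controls 5 of the 12 and none of the 5 were called. Gsta4, a glutathione transferase for lipid aldehydes, had levels of 8.45, 8.34, 6.61, 7.89 and 6.37 in unexposed and 5.72, 6.23 and 6.94 (lowest, median, highest) in exposed mice. The 3 high unexposed mice were those with a Gapdh ratio above 2, but exposed replicates 2 and 7, also above 2, had levels of 5.72 and 6.27. The unexposed mice of day 41 had levels of 5.79 to 6.34. The change of Gsta4 was -1.28 (SE 0.24, adjusted p = 0.00067). With the Gapdh ratio as a covariate it was -0.99 (adjusted p = 0.035), and with the tissue scores -0.79 (adjusted p = 0.0315). Within arrays with squamous transcripts it was -1.20 (adjusted p = 0.00647), and against the pooled controls -0.04 (adjusted p = 0.917). Aldh3a1, an aldehyde dehydrogenase abundant in squamous epithelium, had levels of 9.52, 9.94, 8.44, 9.62 and 7.27 in unexposed mice and its highest exposed levels, up to 9.45, in the 3 exposed arrays with squamous transcripts. Within arrays with squamous transcripts its change was -0.08, against -1.40 (SE 0.44, adjusted p = 0.0446) over all arrays. With the tissue scores as covariates it was -0.18 (adjusted p = 0.696). Against the pooled controls without squamous transcripts Aldh3a1 was called lower, with -0.63 (adjusted p = 0.0136), and against the unexposed mice of day 41 alone its change was 0.09 (adjusted p = 0.96).

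Pon1 and Fabp1 were called against the pooled controls too. Pon1, paraoxonase, had levels of 7.17, 7.75, 7.94, 7.49 and 7.85 at day 34 and 7.60 to 8.45 at day 41 in unexposed mice, and its change of -1.11 (SE 0.32, adjusted p = 0.0278) was -1.46 (adjusted p = 0.0143) against the pooled controls. Fabp1, a fatty acid binding protein, had levels of 4.15 to 5.95 at day 34 and 5.06 to 5.63 at day 41 in unexposed mice. In exposed mice it lay between 3.34 and 5.13, with 6 below every unexposed mouse of day 34. Fabp1 changed by -1.09 (SE 0.32, adjusted p = 0.0281) and by -1.07 (adjusted p = 0.0452) against the pooled controls. Both lost the call with the Gapdh ratio as a covariate (adjusted p = 0.103 and 0.205), and Fabp1 lost it with the tissue scores (adjusted p = 0.0799).

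Cyp1a1 and Cry1 depended on which unexposed mice were the controls. Cyp1a1, a cytochrome induced through the aryl hydrocarbon receptor, had levels of 8.34, 7.36, 7.48, 7.10 and 8.02 in unexposed and 5.77, 6.39 and 7.02 (lowest, median, highest) in exposed mice, with no overlap and a change of -1.28 (SE 0.18, adjusted p = 1.86e-05). The unexposed mice of day 41 had levels of 6.34 to 7.15, within reach of the exposed mice of day 34, and a dimmer probe set moved by 0.54. Cry1, a repressor in the circadian clock whose transcript cycles over the day, was at 8.16, 8.14, 7.83, 7.96 and 8.03 in unexposed and at 7.28, 7.46 and 7.70 in exposed mice. The change was -0.57 (SE 0.09, adjusted p = 4.55e-05), but unexposed mice of day 41 were lower still, 6.70 to 7.12, and against the pooled controls the change was 0.37 (adjusted p = 0.152). Of 16 measured clock genes 2 were called lower (12.5%, against 2.96% of all genes) and 1 higher (6.25%, against 5.26%).

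**Figure D4:**
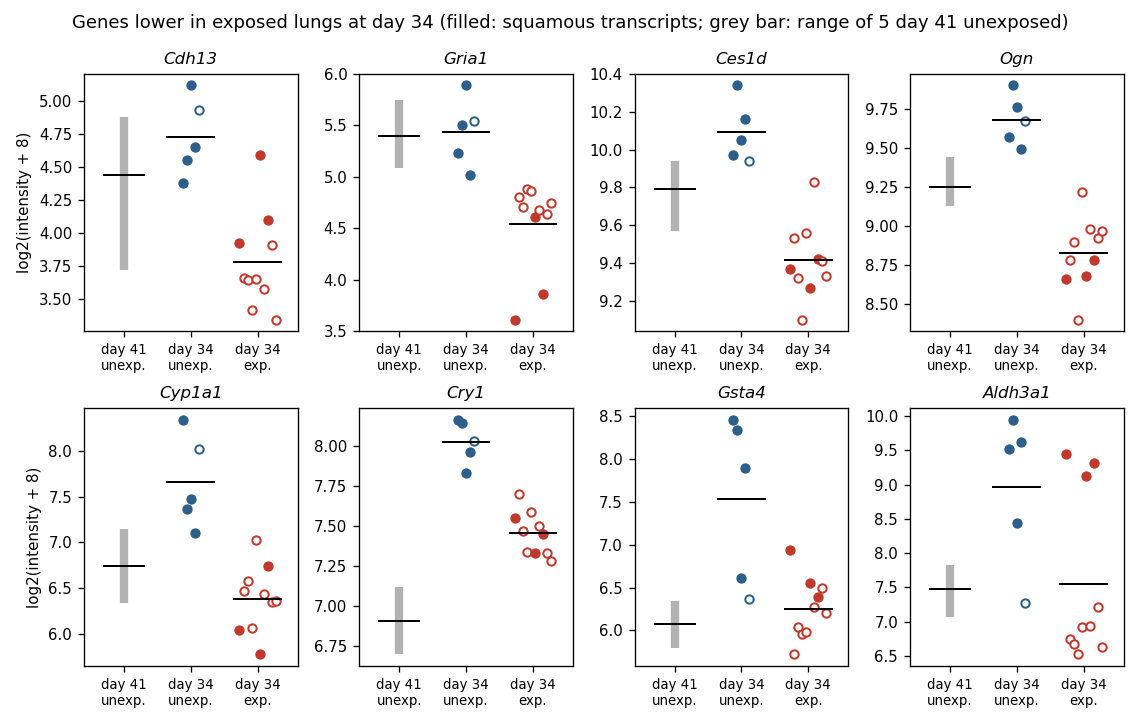
Levels of 8 genes called lower at day 34 (vertical axes, log2(intensity + 8); points, mice; horizontal lines, means; filled symbols, arrays with squamous transcripts; grey bars, lowest to highest of 5 unexposed mice of day 41). The exposed means of Cdh13, Gria1, Ces1d, Ogn and Cyp1a1 lie below the means of day 41 controls, and those of Gsta4, Aldh3a1 and Cry1 above them. The grey bar of Gria1 lies above all exposed mice and that of Cry1 below them, and the other grey bars overlap the exposed mice.

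Lists of the structural cells of the lung were called in few members. Of 12 alveolar epithelial genes 1 was called higher, Pdpn of flat alveolar cells (0.41), and 1 lower, Hopx of the same cells (-0.42). Each is 8.33% of the list, against 5.26% of all genes called higher and 2.96% called lower. Neither was called in the other 3 settings. Of 31 endothelial genes 2 were called higher, the adhesion molecule Vcam1 (0.62, SE 0.12, adjusted p = 0.00133) and the protein C receptor Procr (0.82), and 3 lower, Ednrb (-0.82), Ptprb (-0.71) and Thbd (-0.57). These are 6.45% and 9.68% of the list, against 5.26% and 2.96% of all genes, and none of the 5 was called in all 4 settings. The 3 falls were called neither with the Gapdh ratio as a covariate (adjusted p = 0.106, 0.076 and 0.314) nor against the pooled controls (adjusted p = 0.217, 0.0701 and 0.509). Of 44 matrix and fibroblast genes 2 rose, Timp1 and Tgfbi (1.00, SE 0.13, adjusted p = 6.68e-06), a secreted matrix protein that macrophages make too, and 2 fell, Timp3 (-0.54) and Sparc (-0.46). Each pair is 4.55% of the list, against 5.26% of all genes called higher and 2.96% called lower. Unexposed replicate 1 was the highest of all mice for Timp3, at 11.23, and the call was lost with the Gapdh ratio as a covariate (adjusted p = 0.468). None of 12 smooth muscle genes was called.

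Transcripts of other tissues were among those that varied most between exposed mice, but their share of the whole spread was not measured. Of 30 squamous epithelial genes 6 were called lower and none higher; Krtdap, a keratinocyte protein, changed by -3.09 (SE 0.95, adjusted p = 0.0399) over all arrays and by -0.66 within the arrays with squamous transcripts. No squamous gene was called against the pooled controls without squamous transcripts. None of 27 skeletal muscle, 15 cardiac muscle, 9 adipocyte, 8 thyroid and thymus and 6 liver genes was called, yet their median changes were -0.62, 0.55, -0.16, -0.22 and -0.18. The 8 genes with the largest spread over the 10 exposed mice, among genes with a mean level of at least 7, were Krt4, Car3, Adipoq, Asprv1, Myl4, Mb, Myl7 and Myh6. Adipoq, the fat cell hormone adiponectin, ran from 4.66 to 9.92 in exposed mice, and Myh6, the heavy myosin chain of heart atria, from 5.77 to 9.99. Of 13 erythroid and platelet genes 1 was called lower (7.69%, against 2.96% of all genes). This was Hba-a1 (-0.53), a haemoglobin chain, whose change was -0.21 (adjusted p = 0.624) with the Gapdh ratio as a covariate. Against the pooled controls the change was 0.06.

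**Figure D5:**
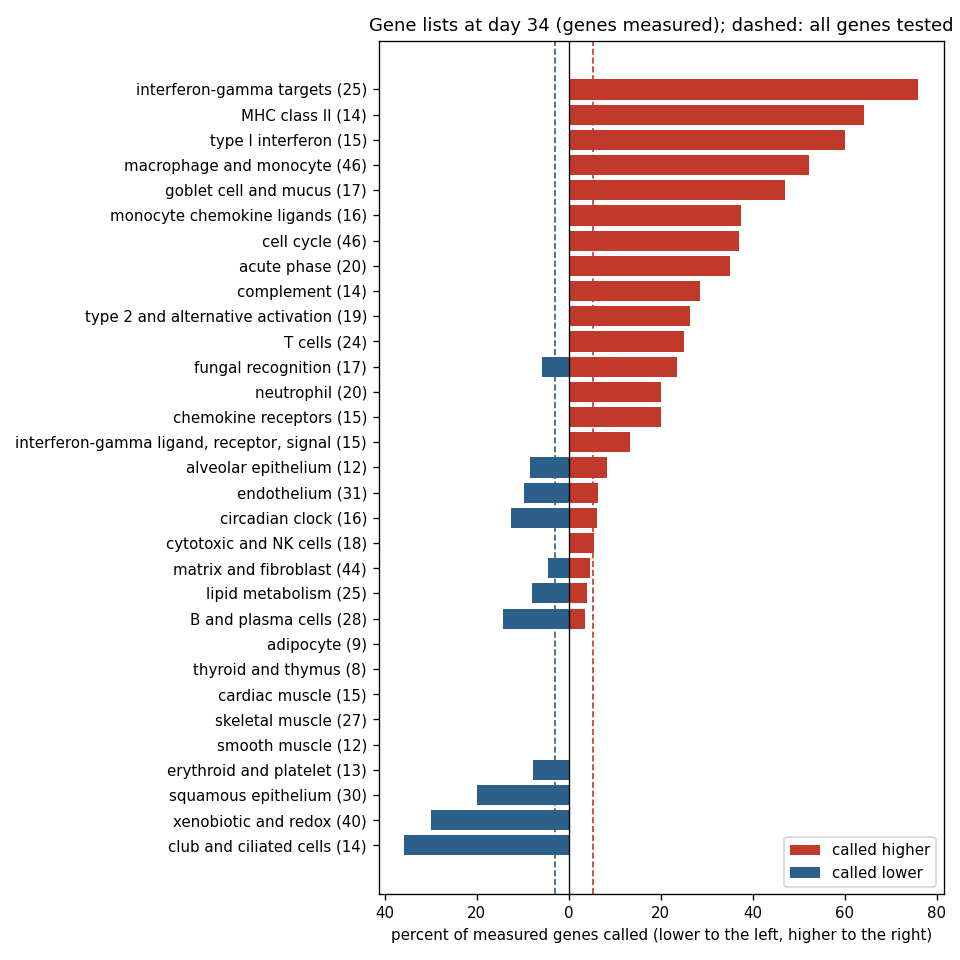
Percent of the measured genes of each list that were called higher (right) or lower (left) at day 34, with the number measured in parentheses and lists with at least 8 measured genes shown. Dashed lines mark all genes tested, 5.26% and 2.96%; interferon-gamma targets reach 76% higher, and club and ciliated cell genes 35.7% lower.

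Probe sets of 1 gene did not always move alike. Among the rises, a dimmer probe set moved by -0.09 for Cd6, -0.12 for Timp1, 0.06 for Msr1, 0.12 for Tk1 and 0.19 for Tgfbi, and 2 of Agr2 by 0.07 and -0.02. Of the dimmer probe sets of Vcam1 1 moved by 0.11 and 1 by 0.75. Among the falls, a dimmer probe set moved by 0.01 for Blk, -0.03 for Pax5, -0.01 for Cd36 and -0.09 for Fabp1, and 2 of Cry1 by -0.25 and 0.03. That of Ogn moved by -0.11, at a mean level of 8.06 in unexposed mice.

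Other mice of the same strain served to see how general the direction was. At day 41, with 10 exposed and 5 unexposed mice of the same cages, 350 of the 434 genes called higher at day 34 (80.6%) had a positive change, against 44.5% of all genes, and 184 of the 244 called lower (75.4%) a negative one, against 55.5%. At day 32, with 3 exposed and 2 unexposed mice of another experiment, these were 384 (88.5%, against 48.5%) and 195 (79.9%, against 51.5%). The main comparison uses the unexposed mice of day 34 alone, so these counts share no controls with days 32 and 41. The 95 rises and 4 falls called in the 4 settings were chosen in part against the unexposed mice of day 41, so their sign is given for day 32 only, where all 95 and all 4 kept it.

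The effect of exposure differed between days 34 and 41 in 9 genes (0.109% of all genes) by a test of the difference itself. Larger effects at day 34 were found for Lcn2 (difference 1.81), Igtp (1.38), Ppie (1.14), Ifi47 (1.11) and Serpina3n (1.07). For Igtp the change was 2.01 at day 34 and 0.62 at day 41, and for Lcn2 2.86 and 1.05. Mean levels of Lcn2 at days 34 and 41 were 10.25 and 9.95 in exposed and 7.39 and 8.90 in unexposed mice. Those of Igtp were 8.20 and 7.37 in exposed and 6.19 and 6.75 in unexposed mice. Smaller or opposite effects at day 34 were found for an immunoglobulin heavy chain variable segment (Entrez gene 211331, difference -3.01) with a change of 0.35 at day 34 and 3.36 at day 41, and for Cyp1a1 (-1.74), Defa35 (-1.60) and Cry1 (-0.92). The difference in Ppie, a peptidyl-prolyl isomerase, comes with unexposed levels of 3.52 to 5.02 at day 34 and 5.16 to 5.59 at day 41. Many rises were smaller at day 41 without a called difference: the change of Clca1 was 5.51 and 3.60, that of Saa3 3.95 and 1.81 and that of Cxcl9 3.64 and 2.11. The count of 9 depended on the arrays and covariates. It was 2 with the Gapdh ratio, 3 with both tissue scores, 4 without arrays with a ratio above 2 and 4 without squamous arrays, of which 1 was among the 9. It was 3 without unexposed replicate 2 of day 41, 105 without unexposed replicate 5 of day 34 and 14 without exposed replicate 7 of day 34.

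Among the 10 exposed mice some responses varied together. Of 20 relations tested, over 5 response genes, Krt13 and the Gapdh ratio, 2 passed a permutation test after adjustment for the 20. C1qb and Birc5 had r = 0.89 and rho = 0.88 (permutation p = 0.00095 and 0.00169, adjusted p = 0.0186 and 0.0221), and r = 0.79 without the 2 mice farthest from the median of C1qb. Saa3 and C1qb had r = 0.82 and rho = 0.87 (permutation p = 0.00186 and 0.00221, adjusted p = 0.0186 and 0.0221), and r = 0.70 without 2 mice. Within the 7 exposed mice without squamous transcripts r was 0.93 and 0.84, each with an adjusted permutation p = 0.107, and the 3 others are too few for a value. Cxcl9 moved apart from the others, with r between -0.05 and 0.19 against Saa3, Clca1, C1qb and Birc5. Exposed replicate 4 was the highest mouse for Saa3 (11.03), Lcn2 (11.30), Ccl9 (10.73) and Timp1 (9.74), whereas replicate 9 was highest for Cxcl9 (8.86) and Ccl8 (9.16).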

How the data were processed

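Total RNA of lung homogenate was turned into biotin-labelled cRNA and hybridised to single-colour Affymetrix arrays, per the labels' protocols. The authors deposited 1 linear intensity per probe set and array (12487 probe sets, 95 arrays, 1 missing value); the sources used here do not name the method that summarised probes. With 2% of values left out at each end, array means lay between 99.99 and 100.0, which shows prior scaling of each array. They were used as log2(intensity + 8), with no further scaling. The platform annotation, which can be old, named 1 gene for 10855 probe sets and several for 396, and left 1236 unnamed. The brightest of several probe sets stood for a gene, in 2072 of 8251 genes; for named genes that were called, dimmer ones that disagreed are given. The number of arrays limits the precision.

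Groups came from the labels. The R package limma 3.58.1 (lmFit, then eBayes; R 4.3.3) gave the changes from the 30 C57BL/6 arrays of days 34 and 41, with Benjamini-Hochberg adjustment over all genes; day 32 was fitted with its own arrays. Array checks used exact permutation tests, correlations 100000 permutations (scipy 1.17.1, Python 3.11.15). The fit was tested on simulated data. The genes and lists were chosen with earlier results of these data known. Named were genes set beforehand, the 15 largest rises and 10 largest falls without overlap among brighter called genes, 12 rises and the falls called in 4 settings, up to 6 called members of each list, the 8 most variable genes and the genes that differed between days. Title numbers did not pair mice. Alternatives were other offsets, filters, normalization, fits, covariates, controls and arrays left out; leaving out arrays with a Gapdh ratio above 2, and both tissue scores with the ratio as covariates, were added after seeing the data. No 2 arrays were identical. A second promoter motif that had been planned is not reported here.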

Additional observations from a re-analysis of the deposited data

Results flagged for a closer look

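Within the groups of day 34, 1 mouse stood far from the others of its group in 26 of 228 checks over the named genes; chance alone gives about 1 in 20. Unexposed replicate 1, the array with the highest Gapdh ratio, was the lowest of its group for Gbp2 (6.45), Gbp3 (6.30), Fpr2 (4.11), Tk1 (4.46), Vcam1 (6.89) and Tgfbi (6.37) and the highest for Cxcr3 (5.69), Pax5 (7.46) and Rrm2 (5.62). Unexposed replicate 2 was the lowest for the mucus genes Tff2 (5.85) and Agr2 (3.30), and unexposed replicate 3 for Ccl8 (4.42). Unexposed replicate 4 was the highest for Cxcl14 (8.03). Unexposed replicate 5, the array without squamous transcripts, was the lowest for Krt13 (3.70), Krt4 (6.59) and Mb (5.45), the oxygen carrier of muscle, and the highest for Irf1 (8.39).

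Among exposed mice, replicate 4 was the highest for Serpina3n (9.38), Ccl9 (10.73) and Timp1 (9.74) and the lowest for Thbd (7.77) and Hpgd (7.17). Replicate 2, with the highest Gapdh ratio of the exposed mice, was the highest for Pdpn (8.59) and Hba-a1 (13.10). Replicate 9 was the highest for Cxcl9 (8.86) and replicate 10 for Igha (10.78).

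The effect of exposure differed between days 34 and 41, by a test of the difference, in 9 genes. It was larger at day 34 by 1.81 for Lcn2, 1.38 for Igtp, 1.14 for Ppie, 1.11 for Ifi47 and 1.07 for Serpina3n, and the difference was -0.92 for Cry1, -1.74 for Cyp1a1, -1.60 for Defa35, an intestinal defensin, and -3.01 for an immunoglobulin heavy chain variable segment (Entrez gene 211331). Mean levels of unexposed mice at days 34 and 41 were 7.39 and 8.90 for Lcn2 and 8.02 and 6.91 for Cry1. They were 7.66 and 6.74 for Cyp1a1, 5.47 and 3.96 for Defa35 and 4.21 and 5.36 for Ppie. These differences between unexposed mice were not tested.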

How the results depend on the processing

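Offsets of 2 and 32, quantile normalization, the mean of all probe sets, the filter on dim genes and the comparison within squamous arrays left the day 34 counts of 434 higher and 244 lower within 1.5 times. Other settings are given as total, higher and lower genes. They were 184, 153 and 31 with the Gapdh ratio as a covariate, 289, 183 and 106 with the score of squamous transcripts, 245, 162 and 83 when that of muscle was added, and 118, 96 and 22 with all 3. They were 17, 12 and 5 without arrays with squamous transcripts, 161, 125 and 36 without arrays with a Gapdh ratio above 2, 204, 164 and 40 with only the 15 arrays of day 34, and 1279, 784 and 495 with all 95 arrays in 1 fit. With the unexposed mice of day 41 alone they were 284, 197 and 87, with those of both days pooled without squamous transcripts 432, 278 and 154, and with all of both days 142 were lower. Without each array in turn the total ranged from 449 to 1312, with 323 to 751 higher and 126 to 561 lower. The Gapdh ratio difference ranged from -1.02 to -0.55 and was -0.78 with beta-actin; that of Krt13 ranged from -4.42 to -2.54. The 9 genes that differed between days were 2 with the Gapdh ratio, 2 with all 3 covariates, 3 with both tissue scores, 5 with the squamous score, 5 with the mean of probe sets, 4 without arrays with a ratio above 2, 4 without squamous arrays, 16 without dim genes and 178 in 1 fit of all arrays; without each array they were 3 (without unexposed replicate 2 of day 41) to 105. Of the 2 correlations, 0 passed without squamous arrays, where 7 mice remain. The cause of these shifts was not tested, apart from the smaller number of arrays where some were left out.

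Title numbers were no pairing: exposed and unexposed mice with the same number had correlations of deviations of 0.02, -0.01, -0.01, -0.07 and 0.39. With the replicate number as a block, 483 genes were called, 329 higher and 154 lower, and 6 differed between days.

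Signs turned in a few named genes. With the unexposed mice of day 41 alone the change was -0.10 for Cebpd, 0.17 for Gsta4, 0.09 for Aldh3a1, 0.55 for Cry1, 0.81 for Krtdap, 0.04 for Defa35 and -0.21 for Ppie. With the pooled controls without squamous transcripts it was -0.13 for Cebpd, 0.37 for Cry1, 0.06 for Hba-a1 and -0.15 for Ppie. Without arrays with a ratio above 2 it was 0.01 for Timp3. Without squamous arrays it was 0.03 for Ms4a1, 0.20 for Timp3, 0.01 for Sparc, 0.06 for Hopx and 0.34 for Hba-a1.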

Other observations

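Some genes that belong to none of the groups above also moved with no overlap between exposed and unexposed mice. Hpgd, which inactivates prostaglandins, had levels of 9.53, 10.11, 9.65, 9.43 and 9.56 in unexposed mice and fell by 0.69 (SE 0.22, adjusted p = 0.0482 by limma), with exposed replicate 4 alone at 7.17 where the median was 9.18. Sox7, a transcription factor of endothelium, fell by 0.59 (SE 0.12, adjusted p = 0.00198) and Fhl1, a LIM domain protein of muscle, by 0.51 (SE 0.10, adjusted p = 0.00154), with dimmer probe sets at -0.17 and -0.16. Cxcl14, a chemokine made by epithelium and fibroblasts, fell by 0.56 (SE 0.15, adjusted p = 0.0157). None of these 4 falls was called against the pooled controls without squamous transcripts.

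Pigr, the receptor that carries IgA across epithelium, is named after its values were seen. It had levels of 9.73, 9.18, 8.92, 9.54 and 8.70 in unexposed mice against 9.75, 10.30 and 10.84 (lowest, median, highest) in exposed mice, and rose by 1.09 (SE 0.19, adjusted p = 0.000206 by limma). Against the pooled controls the change was 1.47 (adjusted p = 2.46e-05), and it was 0.90 at day 41 and 1.91 at day 32.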
